A study of Mus musculus with 83 samples.

Results

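The genes described here are 8 genes used to mark enteric glia, Sox10, Foxd3, S100b, Gfap, Cdh19, Ptprz1, Erbb3 and Gfra3, taken by symbol from a table of 37764 genes counted in mouse colon. All 8 were found in the table, each as 1 protein-coding Ensembl gene, and all 8 passed the filter on low counts. RNA was measured in the colon of 83 male mice of the strain C57BL/6J/Ukj, each mouse sampled once, to ask how expression in this tissue differs between ages. The groups were mice aged 3 months (16 mice), 9 months (16), 15 months (16), 24 months (17) and 28 months (18), with no allele or agent named for any group. Stranded libraries of polyadenylated RNA were made in 3 preparations, and each preparation held 4 to 7 mice of every age. The methods place the samples in the proximal colon, and as a model the groups are limited to 1 strain, 1 sex and a different set of mice at each age.

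Enteric glia are the supporting cells of the nervous system of the gut wall. They descend from the neural crest, surround the nerve cells in the ganglia between the muscle layers and under the mucosa, and also lie among the muscle fibers and below the epithelium. Sox10 and Foxd3 are transcription factors of the crest and its glial descendants, S100b and Gfap are proteins of the glial cytoplasm and cytoskeleton, and Cdh19, Ptprz1, Erbb3 and Gfra3 are proteins of the cell surface. Colon tissue also holds epithelium, muscle, nerve cells, vessels and immune cells, and in such bulk samples fewer cells of a type and less RNA per cell cannot be told apart.

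The libraries held 23026370 to 75838290 counted read pairs each. Levels are given as CPM (counts per 1000000 of the library size), normalized by the trimmed mean of M values (TMM), and differences as log2 fold changes of the older against the younger mice. Of the 8 genes, 7 lay at 1 to 8 CPM on average, which rested on 8 to 566 read pairs in a mouse, and Erbb3 on 7524 to 35718. The summed level of 9 epithelial markers was 7758 to 15747 CPM (median 12013), that of 7 smooth muscle markers 886 to 5586 CPM (median 4265) and that of 12 enteric neuron markers 46.4 to 194 CPM (median 118), and none of these markers was at 0 in all mice. In 5 libraries the smooth muscle score, the mean log2 CPM of the 7 markers, lay more than 1 below the median over all mice, by 1.35 to 2.27. They were replicates 10, 12 and 16 at 3 months and replicates 4 and 6 at 9 months, and many of the results are also given without them.

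Promoter windows are given for 4 of the 8 genes, Foxd3, Ptprz1, S100b and Gfap, and not for Sox10, Cdh19, Erbb3 and Gfra3. The windows given are shown because their genes varied together between mice while their start sites differ in composition. They are RefSeq windows on GRCm38.p6 of 250 bases before to 50 bases after the start, printed 5′ to 3′ in the direction of transcription with every CG dinucleotide in capitals, at chr4:99656049-99656348 (plus strand), chr6:22875252-22875551 (plus), chr10:76253586-76253885 (plus) and chr11:102897151-102897450 (minus).
Foxd3: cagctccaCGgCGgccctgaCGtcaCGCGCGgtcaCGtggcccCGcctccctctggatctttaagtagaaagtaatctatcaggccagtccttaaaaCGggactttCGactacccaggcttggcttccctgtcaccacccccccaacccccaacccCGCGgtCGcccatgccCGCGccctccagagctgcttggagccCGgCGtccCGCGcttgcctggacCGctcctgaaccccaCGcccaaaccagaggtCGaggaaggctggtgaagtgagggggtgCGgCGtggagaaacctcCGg
Ptprz1: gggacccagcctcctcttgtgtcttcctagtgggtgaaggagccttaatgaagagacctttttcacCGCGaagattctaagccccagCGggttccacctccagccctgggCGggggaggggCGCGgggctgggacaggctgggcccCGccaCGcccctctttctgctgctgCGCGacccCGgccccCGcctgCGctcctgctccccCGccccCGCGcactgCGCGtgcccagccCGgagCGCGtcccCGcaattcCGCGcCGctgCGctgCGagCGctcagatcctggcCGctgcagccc
S100b: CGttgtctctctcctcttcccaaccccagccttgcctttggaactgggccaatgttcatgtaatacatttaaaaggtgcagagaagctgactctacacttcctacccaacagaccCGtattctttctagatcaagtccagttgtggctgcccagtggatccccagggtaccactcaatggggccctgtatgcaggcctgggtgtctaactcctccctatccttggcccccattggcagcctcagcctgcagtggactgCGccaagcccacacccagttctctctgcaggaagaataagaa
Gfap: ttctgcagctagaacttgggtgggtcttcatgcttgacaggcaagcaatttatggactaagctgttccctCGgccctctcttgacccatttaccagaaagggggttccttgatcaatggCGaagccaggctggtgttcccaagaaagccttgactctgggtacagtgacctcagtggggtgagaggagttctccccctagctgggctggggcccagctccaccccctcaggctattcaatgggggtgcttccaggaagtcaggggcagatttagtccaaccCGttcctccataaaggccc
The Foxd3 window held 25 CG dinucleotides and 65.7% G and C, and the Ptprz1 window 29 and 71.7%. The S100b and Gfap windows held 3 each, with 53.7% and 55.7% G and C. Over 32851 such windows the median was 7 CG dinucleotides, and 18.4% of windows held as many as that of Foxd3 or more. The letters ACAAAG and ACAATG, forms of the core bound by SOX proteins, were searched on both strands, and the windows of these 4 genes held 0 matches, against at least 1 match in 28.6% of all windows.

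Per unit of length, Erbb3 stood far above the other genes. In TPM (transcripts per 1000000, the count divided by the merged exon length and scaled to the same total in every mouse) its level was 205 ± 42.7 (mean ± SD, n = 83), and it was above the next gene in 83 of 83 mice. S100b followed with 4.44 ± 1.08 TPM, Gfra3 with 4.15 ± 0.647, Gfap with 3.75 ± 1.21 and Sox10 with 3.70 ± 1.04, and neighbours in this part of the order did not differ beyond their spread, with the upper gene above the lower in 46 to 52 of the 83 mice. Cdh19 lay at 2.76 ± 0.784 TPM, below Sox10 in 75 of 83 mice. Foxd3, at 1.48 ± 0.529 TPM, and Ptprz1, at 1.43 ± 0.482, were the lowest and exchanged places, with Foxd3 above Ptprz1 in 44 of 83 mice. The spans of S100b and of Dip2a, which lies on the other strand, overlap without shared exonic bases, and the authors counted by strand.

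**Figure D1:**
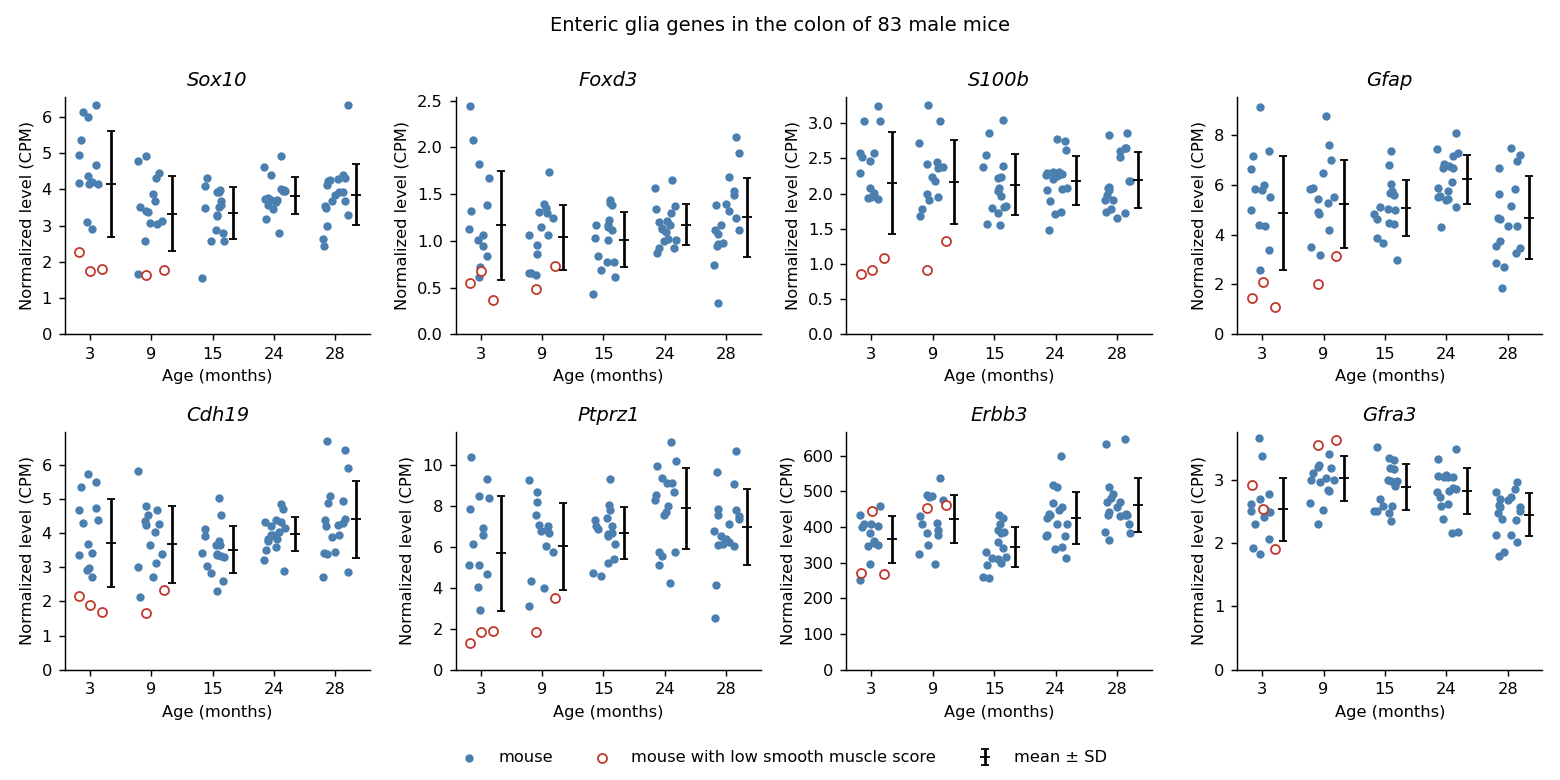
Level of each gene in every mouse (points, CPM, linear axes from 0) against age in months, with the mean and SD per age in black. Open red points are the 5 mice with low smooth muscle scores, which are among the 3 lowest mice of their age for Sox10, S100b, Gfap, Cdh19 and Ptprz1 and are spread over the range for Erbb3 and Gfra3.

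With all mice, when the 5 ages were tested together, 2 of 8 were called, Erbb3 and Gfra3, at an adjusted p below 0.1 (the quasi-likelihood F-test of edgeR, Benjamini-Hochberg adjusted), against 54.9% of the 18325 genes tested. This count depended on the setting. It was 5 without the 5 mice with low smooth muscle scores (51.4% of all genes). With the smooth muscle score as a covariate it was 6 (54.8%), and with the enteric neuron score 7 (59.8%). DESeq2 called 4 of 8, and 10837 genes in all, which are 28.7% of the 37764 genes it took without a filter on low counts. Erbb3 and Gfra3 were also the 2 of 8 that departed from a straight line in age, against 16.2% of all genes. At 28 against 3 months 2 of 8 were called, both higher, where 49.4% of all genes were called, 23.5% as higher and 25.9% as lower in the older mice. Without the 5 mice 1 was called higher, Erbb3, and 1 lower, Sox10, as were 21.5% and 21.9% of all genes. At 24 against 3 months 3 of 8 were called (background 34.5%) by edgeR and 3 by DESeq2 (17.6% of the unfiltered genes). Without the 5 mice edgeR called 0 of 8 (smallest adjusted p = 0.104, background 22.1%). At 28 against 15 months 3 of 8 were called (42.4%) and at 28 against 9 months 2 of 8 (40.0%). At 9 against 3 months 1 of 8 was called (8.69%), at 28 against 24 months 1 of 8 (11.7%) and at 24 against 15 months 1 of 8 (13.5%), which was higher, as were 6.28% of all genes, while 7.24% were lower.

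In the remaining comparisons, 15 against 3, 15 against 9 and 24 against 9 months, 0 of 8 were called by edgeR and 0 by DESeq2. There edgeR called 7.75%, 0.431% and 15.5% of all genes, and DESeq2 4.29%, 0.310% and 8.26% of the unfiltered genes. An unadjusted p below 0.05 was held by 2, 1 and 1 of the 8 genes, and by 17.3%, 9.18% and 24.8% of all genes. S100b, Gfap, Foxd3 and Sox10 were called in none of the 12 tests by edgeR with TMM, all mice and no further term, while Sox10 was called over the 5 ages by DESeq2 (adjusted p = 0.0944) and by edgeR with the size factors of DESeq2 (adjusted p = 0.0995).

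Sox10, the factor that keeps crest cells in the glial fate (chromosome 15, 79154908 to 79165240, GRCm38, minus strand), had its highest median in the youngest mice, which were widely spread. Its lowest, median and highest levels were 1.75, 4.19 and 6.32 CPM in 3-month mice, then 1.63, 3.38 and 4.93 (9 months), 1.56, 3.50 and 4.30 (15 months), 2.79, 3.74 and 4.92 (24 months) and 2.44, 3.88 and 6.32 (28 months). All ages overlapped, and the 3 lowest mice at 3 months were those with low smooth muscle scores. Over all mice, Sox10 differed by -0.32 (standard error 0.13, adjusted p = 0.147, edgeR) at 9 against 3 months and by -0.31 (standard error 0.13, adjusted p = 0.189) at 15 against 3 months, which did not pass the threshold. When the 5 mice were left out it was called as lower at 9 months, by -0.38 (adjusted p = 0.0697), at 15 months, by -0.47 (adjusted p = 0.00344), and at 28 months, by -0.25 (adjusted p = 0.0558), each against 3 months. Its adjusted p over the 5 ages was 0.111 with all mice and 0.00477 without these 5, and 0.147 and 0.0144 for the departure from a straight line. With the smooth muscle score as a covariate the difference at 15 against 3 months was -0.50 (adjusted p = 0.000106), and with the enteric neuron score -0.27 (adjusted p = 0.0237).

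Foxd3, a forkhead factor of the early crest and the least abundant gene in CPM (chromosome 4, 99656299 to 99658622, plus strand), was called in no test over all mice without a covariate. It ranged from 0.368 to 2.44 CPM at 3 months (median 1.04) and from 0.333 to 2.11 at 28 months (median 1.20), and the medians at the other ages lay between these. The difference at 28 against 3 months was 0.13 (95% confidence interval -0.21 to 0.47, adjusted p = 0.564, edgeR) with all mice and -0.03 without the 5 mice (adjusted p = 0.902), so that its sign turned. At 28 against 15 months it was 0.33 with all mice (adjusted p = 0.134) and 0.33 without the 5 mice (adjusted p = 0.0925), where it passed the threshold. Over the 5 ages Foxd3 had an adjusted p of 0.397 with all mice and of 0.254 without these 5. It was called over the 5 ages with the smooth muscle score (adjusted p = 0.0386) and with the enteric neuron score as a covariate (adjusted p = 0.0134), where the difference at 28 against 15 months was 0.37 and 0.47.

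S100b, a calcium-binding protein of glia (chromosome 10, 76253853 to 76261159, plus strand), had the highest p of the 8 genes over the 5 ages. Its lowest, median and highest levels were 0.854, 2.18 and 3.25 CPM in 3-month mice, then 0.915, 2.21 and 3.26 (9 months), 1.56, 2.06 and 3.05 (15 months), 1.49, 2.25 and 2.78 (24 months) and 1.66, 2.09 and 2.87 (28 months). The age medians lay close together and the low mice at 3 and 9 months were again those with low smooth muscle scores. At 28 against 3 months the difference was 0.02 (95% confidence interval -0.23 to 0.27) with all mice and -0.16 without the 5 mice (adjusted p = 0.199), so that its sign turned. Over the 5 ages the adjusted p was 0.999 (edgeR) with all mice and 0.326 without the 5 mice. With the smooth muscle score as a covariate it was lower at 24 against 3 months, by -0.27 (adjusted p = 0.0120), and with the enteric neuron score it was higher at 28 against 3 months, by 0.19 (adjusted p = 0.0329).

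Gfap, the intermediate filament protein typical of astrocytes and of a part of the enteric glia (chromosome 11, 102887336 to 102900912, minus strand), had its highest median at 24 months. The lowest, median and highest levels were 1.08, 5.25 and 9.12 CPM in 3-month mice, then 2.00, 5.36 and 8.76 (9 months), 2.97, 5.01 and 7.33 (15 months), 4.30, 6.09 and 8.06 (24 months) and 1.86, 4.48 and 7.45 (28 months). The 24-month mice lay close together in the upper part of the range, and all ages overlapped. At 24 against 3 months the difference was 0.36 (adjusted p = 0.122, edgeR) and at 28 against 24 months -0.41 (adjusted p = 0.124), neither past the threshold. With the 5 mice left out the former was 0.14 (adjusted p = 0.559) and the latter -0.41, which was called (adjusted p = 0.0400), as was Gfap over the 5 ages (adjusted p = 0.0743). At 24 against 3 months Gfap was called with the enteric neuron score as a covariate (0.47, adjusted p = 0.000690) and with the replicate block (0.45, adjusted p = 0.0694), but not with the smooth muscle score (0.05, adjusted p = 0.836).

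Cdh19, a cadherin of the glial lineage (chromosome 1, 110888326 to 110977584, minus strand), had its highest median at 28 months. Its lowest, median and highest levels were 1.68, 3.55 and 5.74 CPM in 3-month mice, then 1.66, 3.84 and 5.81 (9 months), 2.30, 3.40 and 5.02 (15 months), 2.89, 3.95 and 4.83 (24 months) and 2.71, 4.26 and 6.70 (28 months). The 28-month mice overlapped those of every other age. Cdh19 rose by 0.35 at 28 against 15 months (standard error 0.13, adjusted p = 0.0274, edgeR), with 0.48, 0.17 and 0.26 in the 3 library preparations and 16 of 18 older mice above the 15-month median. Among the other 78 mice this was 0.36 (adjusted p = 0.00668). The rises at 28 against 3 months (0.26, adjusted p = 0.0950) and at 28 against 9 months (0.28, adjusted p = 0.0868) were called with all mice, but not without the 5 mice (0.11, adjusted p = 0.459, and 0.19, adjusted p = 0.180). The second did not hold within preparations, where the values were 0.49, -0.18 and 0.51. With the smooth muscle, enteric neuron and epithelium scores as covariates the difference at 28 against 3 months was 0.15, 0.39 and 0.16 (adjusted p = 0.267, 0.000984 and 0.326). Over the 5 ages Cdh19 had an adjusted p of 0.118 with all mice and of 0.0640 without these 5.

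Ptprz1, a receptor-type tyrosine phosphatase of glia (chromosome 6, 22875502 to 23052916, plus strand), had its highest median at 24 months. Its lowest, median and highest levels were 1.32, 5.63 and 10.4 CPM in 3-month mice, then 1.83, 6.72 and 9.24 (9 months), 4.56, 6.79 and 9.29 (15 months), 4.22, 8.27 and 11.1 (24 months) and 2.54, 6.93 and 10.7 (28 months). At 3 months the mice ranged widely and the 3 lowest had low smooth muscle scores. The rise at 24 against 3 months was 0.48 (standard error 0.18, adjusted p = 0.0348, edgeR), with 0.59, 0.61 and 0.74 in the 3 preparations and 14 of 17 older mice above the 3-month median. Among the other 78 mice it was 0.26 and no longer called (adjusted p = 0.204), and with the smooth muscle score as a covariate 0.13 (adjusted p = 0.437). Over the 5 ages the adjusted p was 0.110 with all mice and 0.281 without the 5. With the enteric neuron score as a covariate the gene was called there (adjusted p = 6.68e-10), and the difference at 28 against 3 months was 0.62, against 0.31 without it (0.11 when the 5 mice were left out).

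Of 6 binding partners of Ptprz1 and S100b, 2 were called over the 5 ages, where 54.9% of all genes were called (51.4% without the 5 mice). Ager, which encodes the receptor RAGE that binds S100b, rose by 0.39 at 28 against 3 months (standard error 0.11, adjusted p = 0.00317, edgeR), from 1.85 ± 0.218 CPM to 2.43 ± 0.597 (SD, n = 16 and 18). Tnr, the matrix protein tenascin R bound by Ptprz1, fell from 0.783 ± 0.305 to 0.459 ± 0.137 CPM, a log2 change of -0.75 (adjusted p = 0.000459). Of the direct ligands of Ptprz1, Ptn differed by 0.22 (adjusted p = 0.312) and Mdk by 0.04 (adjusted p = 0.682), and Cntn1, the contactin it binds, fell by 0.29 (adjusted p = 0.0949). Without the 5 mice 3 of the 6 were called over the 5 ages, and Ager, Tnr and Cntn1 kept their direction and call, with 0.38, -0.87 and -0.48, while Ptn then differed by -0.00 (adjusted p = 0.997) and Mdk by -0.01 (adjusted p = 0.962).

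**Figure D2:**
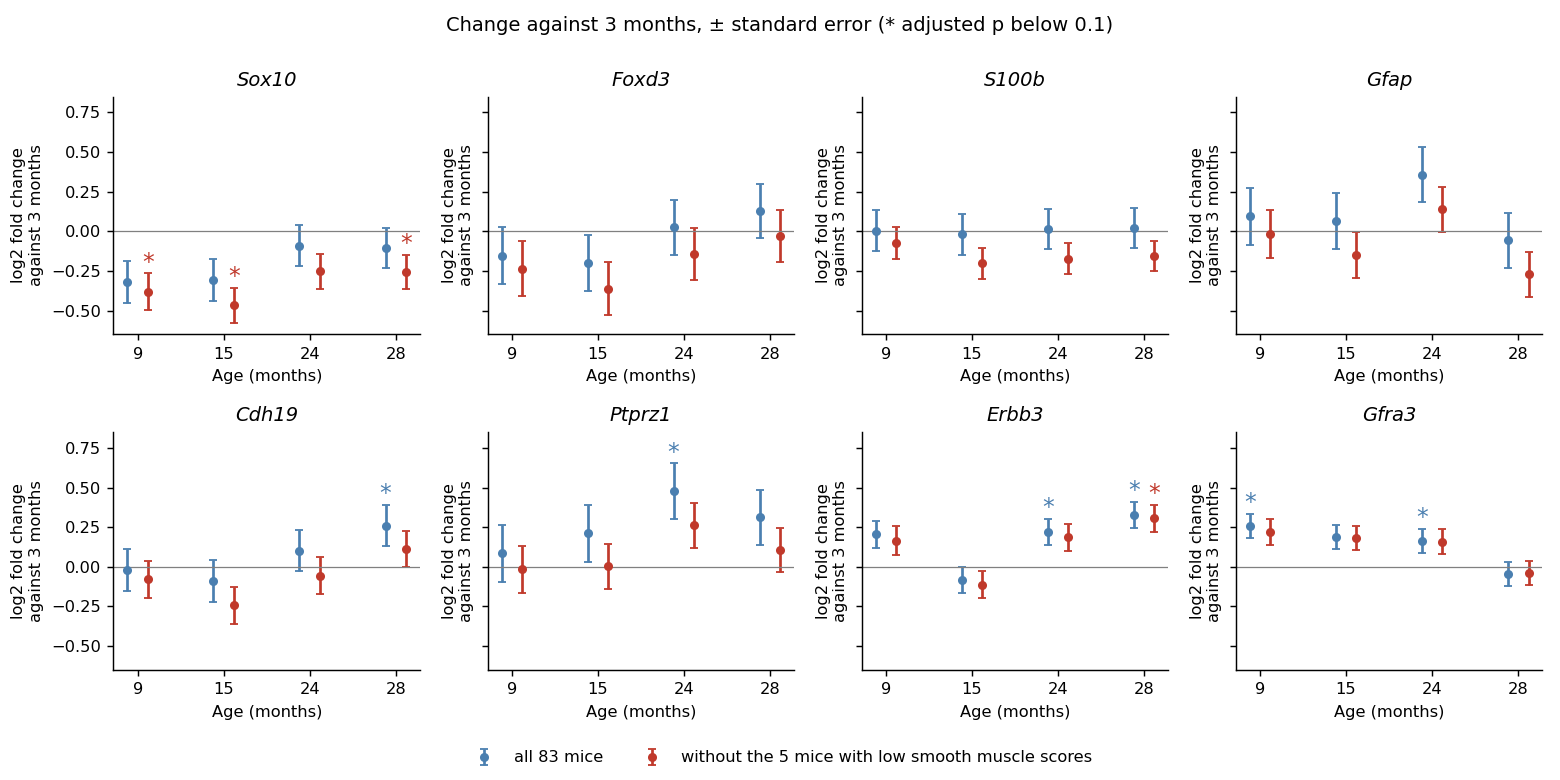
Log2 fold change of each gene against 3 months (y axis) at 9, 15, 24 and 28 months (x axis) with its standard error, over all 83 mice (blue) and without the 5 mice with low smooth muscle scores (red). Asterisks mark an adjusted p below 0.1 (edgeR). For Ptprz1 at 24 months and Cdh19 at 28 months only the blue points carry one, and for Sox10 at 9, 15 and 28 months only the red ones.

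Erbb3, a neuregulin receptor without strong kinase activity of its own that signals by pairing with Erbb2 (chromosome 10, 128567523 to 128589652, minus strand), had the lowest adjusted p of the 8 over the 5 ages (7.68e-05, edgeR, and 0.000185 without the 5 mice). In the gut, epithelial cells are known to make it as well as glia. Its lowest, median and highest levels were 251, 373 and 460.1 CPM in 3-month mice, then 296, 420.5 and 538 (9 months), 257, 336 and 433 (15 months), 314, 425 and 598 (24 months) and 364, 439 and 647 (28 months). The 28-month mice were the highest and the 15-month mice the lowest by the median, with overlap between the ages. At 28 against 15 months Erbb3 rose by 0.41 (standard error 0.08, adjusted p = 4.66e-05, edgeR), with 0.37, 0.31 and 0.58 in the 3 preparations and 18 of 18 older mice above the 15-month median, and by 0.42 without the 5 mice (adjusted p = 3.52e-05). At 28 against 3 months it rose by 0.33 (adjusted p = 0.000693, and without the 5 mice 0.31, adjusted p = 0.00370), with 17 of 18 older mice above the 3-month median. At 24 against 15 months it rose by 0.30 (adjusted p = 0.0153), by 0.19, 0.25 and 0.49 within preparations and by 0.30 without the 5 mice (adjusted p = 0.0138).

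The course of Erbb3 was not a straight line (adjusted p = 0.0126, edgeR; 0.0147 without the 5 mice). The median was lower at 15 months than at 9 months, but this difference of -0.29 had an adjusted p of 0.152 (without the 5 mice -0.28, adjusted p = 0.203), in a comparison where few genes were called. The rise at 24 against 3 months, 0.22 (adjusted p = 0.0406), was not called without the 5 mice (0.19, adjusted p = 0.136) or with the epithelium score as a covariate (adjusted p = 0.105).

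Of the other 7 genes of the neuregulin pathway, 6 were tested and 2 were called over the 5 ages (54.9% of all genes, and 51.4% without the 5 mice). Erbb2, the partner of Erbb3, rose too, from 222 ± 35.4 CPM at 3 months to 249 ± 22.9 at 28 months (SD, n = 16 and 18), a log2 change of 0.16 (standard error 0.07, adjusted p = 0.0381, edgeR), which was 0.13 and not called without the 5 mice (adjusted p = 0.116). Nrg1, the ligand of Erbb3 that glia and Schwann cells depend on, fell from 10.7 ± 2.29 to 7.28 ± 2.33 CPM, a log2 change of -0.54 (standard error 0.14, adjusted p = 0.00132), and -0.58 without the 5 mice (adjusted p = 0.00143). The pathway's median log2 change at 28 against 3 months was 0.03, beside -0.01 over all genes, and 0.02 without the 5 mice, where 2 of the 6 were called over the 5 ages. Receptor and ligand moved in opposite directions, as they did at 24 against 15 months, where Nrg1 fell by 0.40 (adjusted p = 0.0742, and by 0.39 without the 5 mice, adjusted p = 0.0675).

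Gfra3, the co-receptor through which artemin acts on the Ret kinase (chromosome 18, 34689898 to 34720387, minus strand), was called over the 5 ages (adjusted p = 0.00119, edgeR, and 0.00598 without the 5 mice), with its highest median at 9 months. Its lowest, median and highest levels were 1.83, 2.52 and 3.66 CPM in 3-month mice, then 2.30, 3.01 and 3.62 (9 months), 2.34, 2.93 and 3.52 (15 months), 2.16, 2.86 and 3.47 (24 months) and 1.79, 2.53 and 2.96 (28 months). The 28-month mice lay low, with 0 of 18 above the 9-month median and 1 of 18 above the medians at 15 and at 24 months. Against 28 months the level was higher at 9, 15 and 24 months, with log2 changes of the older mice of -0.30 (adjusted p = 0.000865, edgeR), -0.23 (adjusted p = 0.00987) and -0.21 (adjusted p = 0.0628). Within preparations the values at 28 against 9 months were -0.47, -0.02 and -0.37 and those at 28 against 24 months -0.28, -0.04 and -0.28, so that 1 preparation showed little of either. Among the other 78 mice these 3 differences were -0.26 (adjusted p = 0.00464), -0.22 (adjusted p = 0.0112) and -0.20 (adjusted p = 0.0623).

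From the youngest age Gfra3 rose by 0.26 at 9 against 3 months (standard error 0.08, adjusted p = 0.0343, edgeR), with 15 of 16 older mice above the 3-month median, and by 0.16 at 24 against 3 months (adjusted p = 0.0943). With the 5 mice left out these were 0.22 (adjusted p = 0.162) and 0.16 (adjusted p = 0.153) and were not called. The departure from a straight line had an adjusted p of 0.00459 with all mice and of 0.0158 without these 5. At 28 against 3 months Gfra3 differed by -0.05 (95% confidence interval -0.19 to 0.10), and by -0.04 without the 5 mice.

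The GDNF family of ligands and receptors that Gfra3 belongs to held 8 other listed genes, of which 7 were tested and 2 called over the 5 ages. Of all genes 54.9% were called over the 5 ages, and 51.4% without the 5 mice. Artn, which encodes artemin, the ligand of Gfra3, rose from 1.78 ± 0.353 CPM at 3 months to 2.23 ± 0.305 at 28 months (SD, n = 16 and 18), a log2 change of 0.32 (standard error 0.09, adjusted p = 0.00171, edgeR). Ret, the shared kinase, fell by 0.29 (adjusted p = 0.0291) in that comparison and Gfra2, the co-receptor of neurturin, by 0.34 (adjusted p = 0.0178). In the 78 remaining mice 4 of the 7 were called over the 5 ages, and the changes at 28 against 3 months were 0.25 for Artn, -0.42 for Ret and -0.50 for Gfra2, all called.

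Of 16 further glial genes, all tested, 7 were called over the 5 ages, where 54.9% of all genes were called (51.4% without the 5 mice). At 28 against 3 months 5 rose and 2 fell, with a median log2 change of 0.04, where 23.5% of all genes were called higher and 25.9% lower. At 24 against 15 months 5 rose and 0 fell, with a median of 0.19 beside 0.00 over all genes. In that comparison 6.28% of all genes were called higher and 7.24% lower. There 7 rose and 0 fell without the 5 mice (median 0.18), where 15.0% of all genes were called. Scn7a, a sodium channel of glia, rose from 21.3 ± 4.76 CPM at 3 months to 26.0 ± 4.09 at 28 months (log2 change 0.30, adjusted p = 0.00151, edgeR). Lgi4, a secreted glial factor, rose by 0.21 (adjusted p = 0.0775) and Art3, which encodes an ADP-ribosyltransferase family protein, by 0.60 (adjusted p = 1.24e-05). Fabp7, a fatty acid-binding protein of glial progenitors, fell from 0.582 ± 0.250 to 0.208 ± 0.112 CPM, a log2 change of -1.43 (adjusted p = 1.48e-08). Among the other 78 mice 11 of the 16 were called over the 5 ages, and at 28 against 3 months 2 rose and 3 fell (median -0.05), where 21.5% of all genes were called higher and 21.9% lower. Lgi4 was then not called at 28 against 3 months (0.10, adjusted p = 0.347), while Scn7a (0.19), Art3 (0.45) and Fabp7 (-1.59) were.

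Of 6 intermediate filament genes of glia and nerve cells 3 were called over the 5 ages (54.9% of all genes, and 51.4% without the 5 mice). Of these 3, Vim, vimentin, rose by 0.33 at 28 against 3 months (adjusted p = 0.000348, edgeR). Nefl, the light neurofilament chain, fell by 0.40 (adjusted p = 0.0146), and Synm, synemin, differed by 0.30 (adjusted p = 0.170). The median of this list was -0.07. Without the 5 mice 5 of the 6 were called over the 5 ages, and at 28 against 3 months 1 rose and 3 fell, with 0.28 for Vim and -0.58 for Nefl, both called, and 0.06 for Synm (adjusted p = 0.684). The median was then -0.13.

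Of 11 neural crest and SoxE genes 8 were tested and 5 called over the 5 ages (54.9% of all genes, and 51.4% without the 5 mice). At 28 against 3 months 3 rose and 1 fell (median 0.06). Ednrb, the endothelin receptor of crest cells and glia, fell from 20.8 ± 2.42 to 15.6 ± 2.69 CPM (log2 change -0.40, adjusted p = 3.03e-05, edgeR), while Edn3, its ligand, rose by 0.33 (adjusted p = 0.00153). Sox8, the close relative of Sox10, was called over the 5 ages (adjusted p = 0.0166) and differed by -0.22 at 28 against 3 months (adjusted p = 0.252). Tfap2a, a crest factor also made in epithelia, rose by 5.52 (adjusted p = 4.12e-40) to 3.86 ± 0.660 CPM. The size of this change rests on a very low level at 3 months. Among the other 78 mice 5 of the 8 were called over the 5 ages, and at 28 against 3 months 2 rose and 3 fell, Sox8 among the latter (-0.37, adjusted p = 0.0551), with a median of -0.03. Ednrb (-0.40), Edn3 (0.39) and Tfap2a (5.42) were then still called. Of 5 melanocyte genes, which mark another crest lineage with Sox10, 2 were tested, and Dct, dopachrome tautomerase, fell by 0.39 (adjusted p = 0.00941, and -0.37 without the 5 mice, adjusted p = 0.0302). The other tested gene did not fall with it and differed by 0.10 without the 5 mice (adjusted p = 0.427, edgeR).

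Among markers of the neighbours of glia, 2 of 12 enteric neuron genes were called over the 5 ages, where 54.9% of all genes were called. At 28 against 3 months, where 25.9% of all genes were called lower, 0 rose and 3 fell (median -0.24). They included Vip, vasoactive intestinal peptide (-0.47, adjusted p = 0.000191, edgeR), and Chat, choline acetyltransferase (-0.40, adjusted p = 0.00488). The third was Ret. Without the 5 mice 11 of the 12 were called over the 5 ages and 12 of 12 fell at 28 against 3 months (median -0.42, beside -0.00 over all genes), where 51.4% of all genes were called over the 5 ages and 21.9% were called lower at 28 against 3 months. Vip then fell by 0.55 and Chat by 0.47. Of 7 smooth muscle genes 2 were called over the 5 ages and 0 at 28 against 3 months by edgeR, where the smallest adjusted p was 0.184. The median of this list turned with the 5 mice, which its own score had singled out, from 0.13 with them to -0.08 without them (2 called over the 5 ages and 0 at 28 against 3 months by edgeR, smallest adjusted p = 0.390). The called ones were Des, desmin, and Actg2, enteric actin (adjusted p = 0.0920 and 0.0964 with all mice). Of 9 epithelial genes 3 were called over the 5 ages, and 0 rose and 4 fell at 28 against 3 months (median -0.09), among them Epcam (-0.09, adjusted p = 0.0294) and Cdh1 (-0.17, adjusted p = 0.00363), which join epithelial cells. Without the 5 mice 2 epithelial genes were called over the 5 ages and 2 fell, where Cdh1 was called (-0.12, adjusted p = 0.0592) and Epcam was not (-0.05, adjusted p = 0.311). With all mice 4 of 5 macrophage genes (median 0.32), 3 of 4 endothelial genes (0.18) and 2 of 5 adipocyte genes (0.57) rose and none of them fell, 2 of 4 lymphocyte genes fell (-0.85), and 1 of 5 fibroblast genes rose and 1 fell (0.04) at 28 against 3 months. With the 5 mice left out 3 macrophage (0.29), 3 endothelial (0.18) and 2 adipocyte genes (0.38) rose, 2 lymphocyte genes fell (-0.93), and 1 fibroblast gene rose and 2 fell (-0.09). Over the 5 ages 0 of 3 pacemaker cell genes were called by edgeR, with 0 at an unadjusted p below 0.05, and 0 without the 5 mice (smallest adjusted p = 0.297). The part of these other cell types in the results above was not tested beyond the covariate fits given.

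In 6 of the genes the spread between mice of the same age was wide in young and narrow at 24 months. The SD of log2 CPM at 3 months was 0.89 for Ptprz1, 0.86 for Gfap, 0.70 for Foxd3, 0.58 for Sox10, 0.58 for S100b and 0.54 for Cdh19. At 24 months these were 0.39, 0.23, 0.25, 0.19, 0.23 and 0.19. The ratio of both SDs lay between 2.27 (Ptprz1) and 3.74 (Gfap), beside a median of 1.17 over all tested genes, and was 1.13 for Erbb3 and 1.45 for Gfra3. Markers of muscle and nerve cells narrowed likewise, with a median SD of 0.83 at 3 and 0.25 at 24 months for smooth muscle and of 0.78 and 0.26 for enteric neurons. When the 5 mice were left out the ratio was 1.12 for S100b, 1.33 for Ptprz1, 1.81 for Sox10, 1.95 for Cdh19, 2.09 for Gfap and 2.27 for Foxd3, beside 1.08 over all genes. At 28 months, where none of the 5 mice belong, the SD was 0.54 for Gfap and 0.55 for Foxd3. Without the lowest mouse of that age it was 0.46 for Gfap and 0.38 for Foxd3, whose lowest mouse was replicate 13. These ratios are descriptions without a test.

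**Figure D3:**
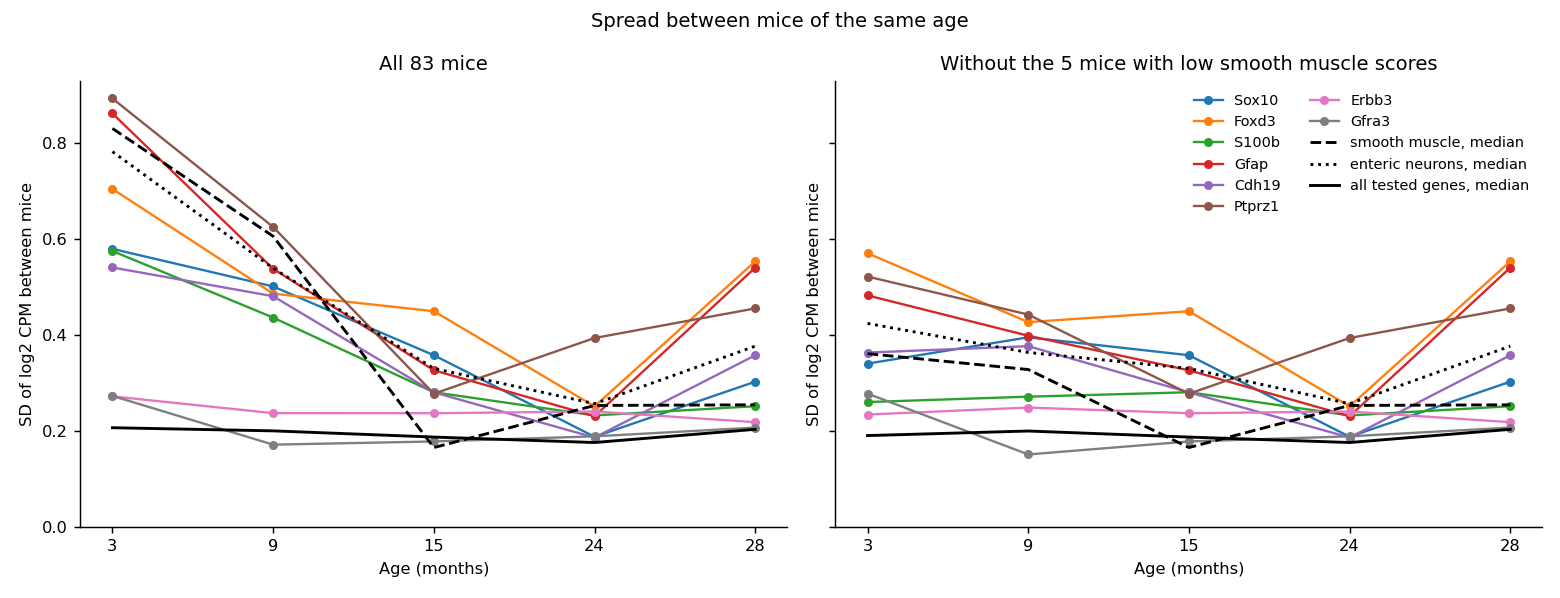
SD of log2 CPM between mice of the same age (y axis) against age in months (x axis) for each gene, with the medians over smooth muscle markers, enteric neuron markers and all tested genes in black. The left panel holds all 83 mice, where 6 genes and both marker lists come down between 3 and 15 months while Erbb3 and Gfra3 stay near the line of all genes, and the right panel leaves out the 5 mice with low smooth muscle scores.

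Mice of the same age and preparation also varied together in these 6 genes. After the age and preparation means were taken out, Pearson's r over the 83 mice lay between 0.36 and 0.79 in their 15 pairs (median 0.65), and Spearman's rho between 0.34 and 0.69. The lowest r was that of Cdh19 and Foxd3 (permutation p = 0.000890, two-sided, 100000 resamples, adjusted p = 0.00166 by Benjamini-Hochberg over the 28 pairs of the 8 genes), and the lowest rho that of Gfap and Cdh19 (permutation p = 0.00176, adjusted p = 0.00329). Without the 2 mice farthest from the median r lay between 0.37 and 0.72, and within each preparation all 45 values were above 0, from 0.18 to 0.84. Without the 5 mice 44 of the 45 were above 0, from -0.07 to 0.69. Among the other 78, r lay between 0.10 and 0.56 (median 0.43), lowest for Gfap and Cdh19 (adjusted permutation p = 0.473), and 12 of the 15 pairs had an adjusted permutation p below 0.05. The strongest pair was S100b and Ptprz1 (0.79, and 0.56 among the 78).

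Over all mice Erbb3 and Gfra3 did not share this variation. In the 13 pairs that hold at least 1 of them r lay between -0.32 and 0.18, and 1 pair passed, Gfra3 with Cdh19, which varied in opposite directions (r = -0.32, rho = -0.32, adjusted permutation p = 0.00521 and 0.00488, r = -0.28 without the 2 farthest mice, and -0.37 among the 78). Its values within preparations were -0.39, -0.34 and -0.20. For Erbb3, r with the 6 genes was -0.26 to 0.15 in preparation 1, -0.29 to -0.07 in preparation 2 and 0.21 to 0.53 in preparation 3, where all 6 were above 0. The positive values in preparation 3 rested in part on its 3 mice with low smooth muscle scores, and without them r there was -0.28 to 0.36, with -0.03 for Sox10 and -0.07 for S100b. In the other preparations r without the 5 mice was -0.23 to 0.22 and -0.18 to 0.02. For Gfra3 and the 5 genes other than Cdh19, r within preparations was -0.19 to 0.32, and -0.14 to 0.40 without the 5 mice. By this measure the 8 genes did not vary as 1 group, as Erbb3 and Gfra3 did not vary along with the other 6 genes. Which cells any of the 8 genes mark in this tissue was not tested.

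**Figure D4:**
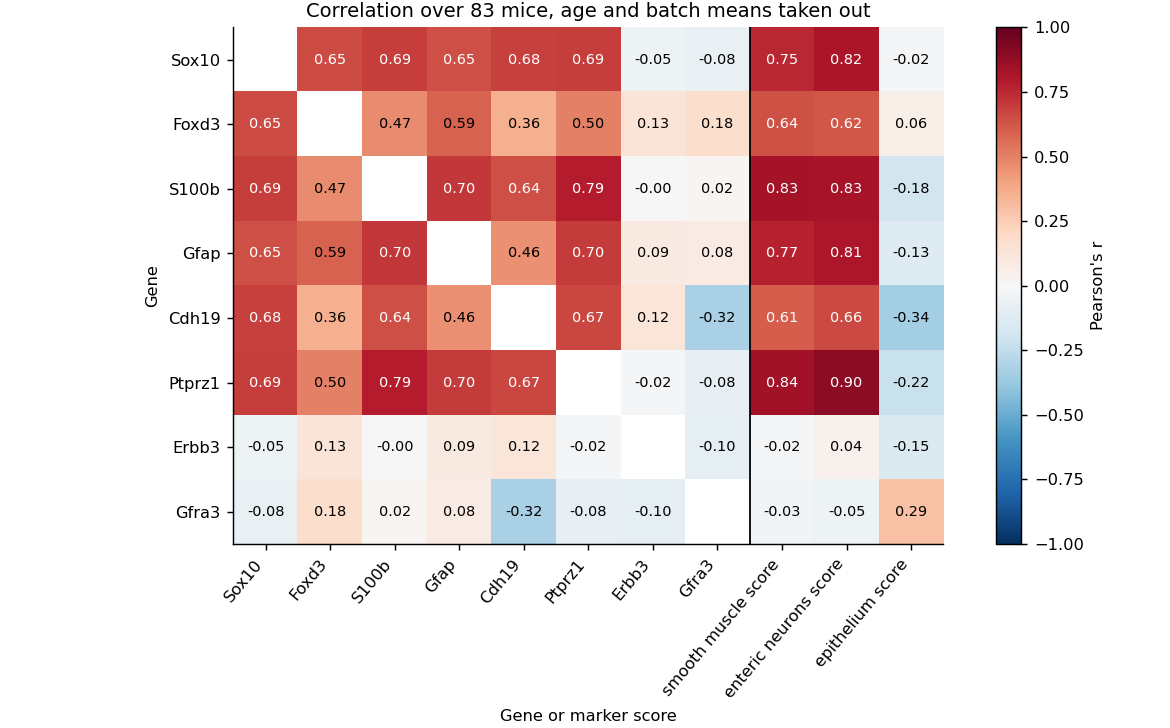
Pearson's r over the 83 mice between the 8 genes (rows and left columns) and with 3 marker scores (right columns), after the age and preparation means of log2 CPM were taken out. The 6 genes from Sox10 to Ptprz1 form a block of positive values that extends to the smooth muscle and enteric neuron scores, and the lines of Erbb3 and Gfra3 are pale.

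The 6 genes varied along with markers of the gut wall layers in which glia lie. With the score of enteric neurons, the mean log2 CPM of 12 genes, r lay between 0.62 (Foxd3) and 0.90 (Ptprz1), and with the score of smooth muscle between 0.61 (Cdh19) and 0.84 (Ptprz1), each with an adjusted permutation p of 2.00e-05 over 24 relations, the smallest that 100000 resamples gave after adjustment. Spearman's rho of these 12 relations was 0.41 to 0.82, r without the 2 farthest mice 0.54 to 0.88, and r within single preparations 0.44 to 0.91, or 0.10 to 0.84 without the 5 mice. Among the 78 mice without low smooth muscle scores, r with the neuron score was 0.80 for Ptprz1, 0.69 for Sox10 and 0.40 for Cdh19, and r with the muscle score 0.71, 0.56 and 0.23. The last of these had an adjusted permutation p of 0.0746, above 0.05. With both scores Erbb3 (0.04 and -0.02) and Gfra3 (-0.05 and -0.03) lay near 0 over all mice. Within the 3 preparations Erbb3 had -0.15, -0.22 and 0.32 with the neuron score and -0.30, -0.31 and 0.30 with the muscle score. The positive values rested on the mice with low scores, and without the 5 mice Erbb3 had -0.12, -0.04 and -0.03 with the neuron score, and -0.35, -0.27 and -0.15 with the muscle score. With the muscle score r of Erbb3 was -0.22 without the 2 farthest mice and -0.25 among the 78 (adjusted permutation p = 0.0512). With the epithelium score r was 0.29 for Gfra3 (adjusted permutation p = 0.0134, rho = 0.29), -0.34 for Cdh19 (adjusted permutation p = 0.00343, rho = -0.43) and -0.15 for Erbb3 (adjusted permutation p = 0.257), whose rho of -0.30 passed (adjusted permutation p = 0.0109), as did that of Ptprz1 (-0.25, adjusted permutation p = 0.0355, r = -0.22 with adjusted permutation p = 0.0793). Without the 2 farthest mice r was 0.32 for Gfra3, -0.44 for Cdh19, -0.39 for Erbb3 and -0.30 for Ptprz1. Within preparations r was 0.35, 0.30 and 0.32 for Gfra3, -0.33, -0.38 and -0.38 for Cdh19, -0.44, -0.19 and -0.01 for Erbb3 and -0.12, -0.14 and -0.29 for Ptprz1, and among the 78 mice it was 0.34, -0.36, -0.10 and -0.19. For Erbb3 the values within preparations were -0.44, -0.25 and 0.14 without the 5 mice.

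**Figure D5:**
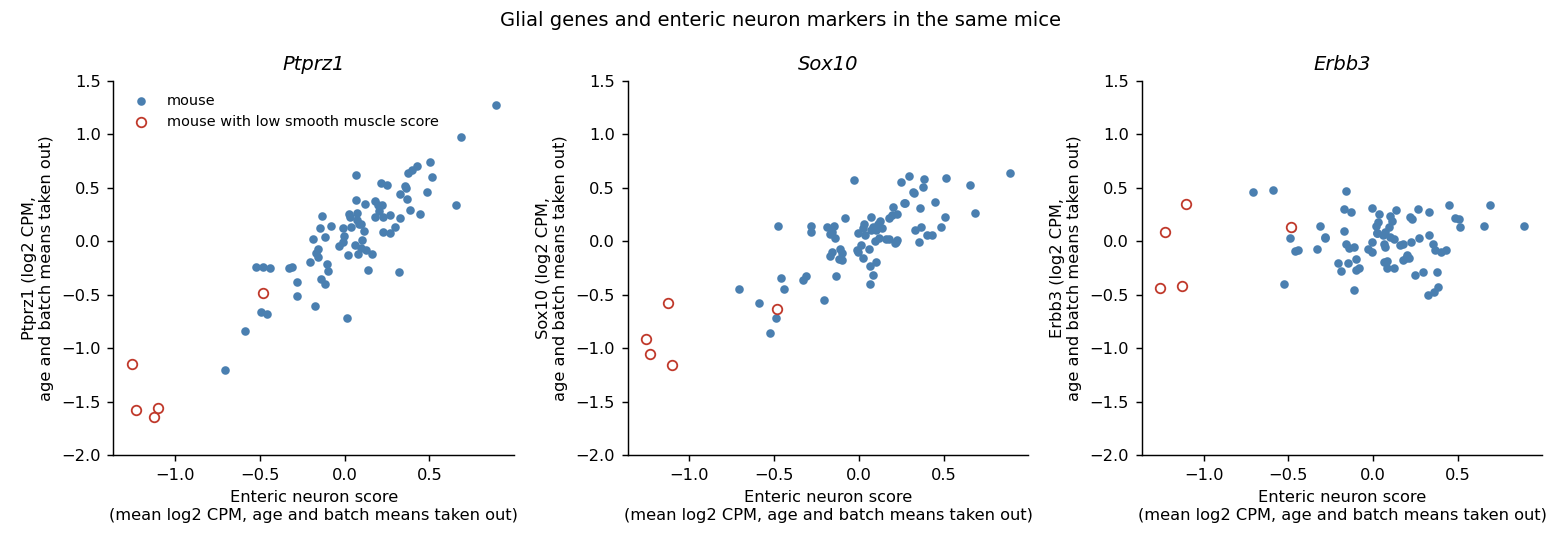
Ptprz1, Sox10 and Erbb3 (y axes) against the enteric neuron score (x axes) in the same 83 mice, as log2 CPM with age and preparation means taken out. The 5 open red points are the mice with low smooth muscle scores, at the lower left for Ptprz1 and Sox10, and the other mice of these genes rise along the score while those of Erbb3 do not.

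Among 14961 other genes with a mean of at least 1 CPM, the 10 whose variation over the 83 mice was most like that of Sox10 were Lgi4, Spock2, Prph, Tmem130, Adam11, Gfra1, Eef1a2, Rtn1, Tubb3 and Ndrg4, with r from 0.84 to 0.81. Lgi4 is a glial gene, and Prph, Tubb3 and Gfra1 are known from nerve cells. The gene most like Ptprz1 was Nos1, the nitric oxide synthase of enteric neurons (0.92), the gene most like Cdh19 was the glial channel gene Scn7a (0.87), and that most like S100b was Meis2, a homeobox gene (0.85). Gfap was nearest to Tmem179 (0.82) and Foxd3 to Bcam (0.73). Erbb3 was nearest to its partner Erbb2 (0.87), and Gfra3 to the keratin gene Krt87, with the lowest value of the 8 (0.55). Among the 78 mice without low smooth muscle scores r with Sox10 lay between 0.68 and 0.75 for these 10 genes, 7 of which stayed among its 10 nearest. Meis2, Tmem179, Scn7a, Erbb2 and Krt87 were again the nearest to their genes, while Nos1 (0.84) and Bcam (0.66) came after Slc5a7 for Ptprz1 and Mta1 for Foxd3. The values describe likeness of variation only.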

How the data were processed

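RNA of the colon of 83 mice was sequenced as read pairs. According to the methods and the processing notes, the authors trimmed reads with cutadapt 2.8, filtered them, aligned them to GRCm38 with HISAT2 2.1.0, kept uniquely mapped pairs and counted them per gene and by strand with featureCounts of Subread 2.0.1. What the authors deposited are raw counts, whole read pairs per gene in each mouse, without pooling. Uniquely mapped pairs undercount genes with near copies.

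Symbols, positions and exon lengths came from GENCODE M21 (GRCm38), an earlier release than that of the methods, in which 37612 of 37764 genes were found. Counts were filtered with filterByExpr by age, which kept 18325 genes, normalized with TMM and fitted over all mice in edgeR 4.0.16 (R 4.3.3, limma 3.58.1) with age group and library preparation, and tested with the quasi-likelihood F-test for the 10 pairs of ages, the 5 ages together and the departure from a straight line. Adjustment over all genes within a test followed Benjamini-Hochberg, with a threshold of 0.1 after the study's methods. DESeq2 and the fit with no filter took all 37764 genes. Correlations used log2 CPM with a prior count of 2, residuals from age and preparation, and permutation tests (Python 3.11.15, numpy 2.4.6, scipy 1.17.1, pandas 2.3.3; figures with matplotlib 3.10.9).

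The genes and the other lists were chosen with earlier results of these data known. All 8 genes are named. Of each other list, at most 4 are, those with the smallest p over the 5 ages among called genes, and direct partners of the 8. Other genes are named by likeness of variation, the 10 nearest to Sox10 and the nearest to each of the others. Ret among the fallen neuron genes is named as a partner of Gfra3. Alternatives were DESeq2 1.42.0, its size factors, no filter, an adjusted p below 0.05, a replicate block, no term for the preparation, smooth muscle or enteric neuron scores as covariates, only the 2 ages compared, each mouse left out in turn, a prior count of 0.5 and, chosen after seeing the data, the epithelium score as a covariate and the 5 mice with low smooth muscle scores left out. No mouse was left out of the main results. The symbol Tyr was not matched. A list of myelin genes is not reported here.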

Additional observations from a re-analysis of the deposited data

How the results depend on the processing

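Of the 183 alternative values for the fold changes and tests called above, 157 kept direction and call, 26 kept the direction but missed the threshold, and 0 reversed. At some settings the genes called changed while their number stayed the same. With the smooth muscle covariate Ptprz1 and Gfra3 lost their call at 24 against 3 months. There Sox10 (-0.36) and S100b (-0.27) were called as lower. Sox10 took the place of Cdh19 at 28 against 3 months at that setting, and also without the 5 mice with low smooth muscle scores. Without these mice Sox10 took that of Gfra3 at 9 against 3 months. Numbers of the 8 genes called moved as follows, each with the percent of all genes called at that setting, and the cause was not tested. With the smooth muscle covariate they were 2 at 9 against 3 (8.28%), 2 at 15 against 3 (9.45%), 5 at 28 against 9 (42.2%), 5 at 28 against 15 (45.0%), 6 over the 5 ages (54.8%) and 5 for the line (19.9%). With the enteric neuron covariate they were 2 at 9 against 3 (10%), 2 at 15 against 3 (10.3%), 4 at 24 against 3 (37.4%), 5 at 28 against 3 (54.0%), 3 at 24 against 9 (19.0%), 6 at 28 against 9 (45.2%), 4 at 24 against 15 (15.9%), 6 at 28 against 15 (46.5%), 3 at 28 against 24 (13.8%), 7 over the 5 ages (59.8%) and 3 for the line (19.0%). With the epithelium covariate, chosen after seeing the data, they were 1 at 15 against 3 (8.61%), 2 at 24 against 3 (30.4%), 1 at 28 against 3 (45.4%), 1 at 15 against 9 (1.16%) and 1 at 28 against 9 (38.2%). Without the 5 mice with low smooth muscle scores they were 1 at 15 against 3 (8.31%), 0 at 24 against 3 (22.1%), 1 at 28 against 9 (39.6%), 4 at 28 against 15 (42.8%), 2 at 28 against 24 (12.8%), 5 over the 5 ages (51.4%) and 3 for the line (17.2%). With only the 2 ages in the fit they were 2 at 24 against 3 (34.4%), 1 at 28 against 3 (46.1%), 1 at 24 against 9 (18.1%), 1 at 28 against 9 (38.1%), 2 at 24 against 15 (19.1%) and 2 at 28 against 24 (11.5%), with no filter 2 at 24 against 3 (15.6%), 1 at 28 against 3 (25.1%), 1 at 28 against 9 (18.7%) and 0 at 28 against 24 (3.87%), with an adjusted p below 0.05 2 at 24 against 3 (26.8%), 1 at 28 against 3 (42.1%), 1 at 28 against 9 (32.6%) and 0 at 28 against 24 (7.11%), and with no batch term 2 at 24 against 3 (33.2%), 1 at 28 against 3 (48.7%) and 1 at 28 against 9 (39.0%). DESeq2 and its size factors in edgeR each called 4 over the 5 ages, adding Sox10 and Cdh19. Of all genes they called similar numbers, 10837 and 10072, which are 28.7% of 37764 unfiltered and 55.0% of 18325 filtered genes.

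Leaving out each of the 83 mice in turn gave 1 to 3 called genes at 9 against 3, 0 to 1 at 15 against 3, 2 to 4 at 24 against 3, 1 to 3 at 28 against 3, 0 to 1 at 15 against 9 and at 24 against 9, 1 to 2 at 28 against 9, 1 to 1 at 24 against 15, 3 to 4 at 28 against 15, 0 to 2 at 28 against 24, 2 to 5 over the 5 ages and 2 to 3 for the line. The rise of Gfra3 at 24 against 3 months was lost in 21 of these fits, those of Cdh19 at 28 against 3 and 28 against 9 months in 18 and 12, and the fall of Gfra3 at 28 against 24 months in 2, without replicate 7 at 24 months or replicate 11 at 28 months. The other calls held in all 83. Sox10, Ptprz1 and Cdh19 became called over the 5 ages in 16, 16 and 13 of them. The mice behind these losses came from both ages compared and, for Gfra3 at 24 against 3 months, also from 28 months. The share of all genes called in each of these fits was not recorded, so these counts stand without a background.

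Replicate numbers did not pair the mice: over 161 pairs of the same number the mean correlation of deviations was 0.002, and 27 pairs were over 0.1. With the replicate block 4 genes were called at 24 against 3 months (Gfap added, 33.6% of all genes), 3 at 28 against 3 (Ptprz1 added, 47.1%) and 3 over the 5 ages (Ptprz1 added, 51.9%). Depth limits Foxd3 most, with 8 to 128 read pairs per mouse.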
